A study of Mus musculus with 16 samples.

Results

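Mthfd2 and 9 other genes of the ATF4-driven stress response were followed through left ventricles of mice with or without the P635L mutation of RBM20, a splicing factor of heart muscle. The members were given as a list of names: the serine and one-carbon enzymes Mthfd2, Phgdh, Psat1, Shmt2 and Aldh1l2, the transcription factor Atf4, its targets Asns and Trib3, and the secreted factors Fgf21 and Gdf15. All 10 were among the 56953 genes of the deposited count table, and all 10 were among the 18662 genes that passed the filter on low counts. Mthfd2 had been noticed in these data as 1 of the genes that fell most with the Tnpo3 virus in P635L hearts, so the values of that comparison are given for the 10 genes as a description, and nothing is read from a threshold named there.

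The 16 mice were Bl6J animals of both sexes, 4 per group, and each gave 1 library of polyadenylated RNA from the left ventricle. WT Ctr and WT Tnpo3 were wild type, and P635L Ctr and P635L Tnpo3 were homozygous for P635L. Every mouse received 1e12 viral genomes of AAV9 into a tail vein when 4 weeks old, and its heart was taken 12 weeks later, at 16 weeks. The Tnpo3 virus carried the cDNA of a nuclear import receptor, and the Ctr virus carried pCAG-iCre-T2A-eGFP, so both Ctr groups expressed a Cre recombinase and a fluorescent protein from the CAG promoter, and no group was free of virus. Libraries held 28493249 to 85922669 counts, and Tnpo3 itself was at 41.6 to 49.4 CPM (a gene's counts scaled to the library's effective total) in the 8 Ctr hearts and at 231 to 723 CPM in the 8 Tnpo3 hearts. Cardiomyocyte markers summed to between 40700 and 67300 CPM in all 16 libraries, and atrial markers to at most 27.7 CPM. In WT Ctr replicates 2 and 4 and WT Tnpo3 replicate 4, the single gene ENSMUSG00000119584 took 20% to 22.7% of the counts, against at most 5.30% elsewhere. WT Ctr replicate 4 and WT Tnpo3 replicates 2 and 4 were the 3 libraries with high Xist, at 8351 to 20259 counts. They had 0 counts of Y-linked genes, as in females. Every P635L heart had 9 to 87 Xist counts and 6296 to 15105 Y-linked counts, as in males. The hearts with female counts were thus all wild type, and sex is in part confounded with genotype. Calls of named genes that were lost without either set of 3 libraries are given beside the gene.

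ATF4 is a transcription factor whose protein is made when the initiation factor eIF2 is phosphorylated, the step shared by the branches of the integrated stress response. In heart muscle this response is known from failing mitochondrial translation and respiration, and its targets include the enzymes that make serine and pass its carbon to folate. PHGDH and PSAT1 carry out steps of serine synthesis, SHMT2 splits serine inside mitochondria, MTHFD2 oxidises the folate-bound carbon there, and ALDH1L2 burns it to carbon dioxide. FGF21 and GDF15 are hormones released by tissues under such stress.

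ATF4 binds DNA with C/EBP partners at the C/EBP-ATF response element. Its core was searched on both strands as TGATGNAA (TTNCATCA when read on the other strand) in RefSeq promoter windows of build GRCm38.p6, which reach from 250 bases before to 50 bases after a start. Of 9 members with a window (all but Aldh1l2), 3 held a match (33.3%), namely Asns, Trib3 and Fgf21. The core was present in 1219 of 27025 genes with a window (4.51%), and in 3.97% of 32851 windows. The windows around the 3 matches are shown because they are the members with the letters of the element near their start; each is 30 bases, read along the strand of the match, with the core in capitals.
Asns, minus strand, chr6:7693214-7693243, core at -23 to -16 from the start: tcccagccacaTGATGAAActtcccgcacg
Fgf21, plus strand, chr7:45615611-45615640, core at -139 to -132: gcctggacggaTGATGCAAtgggggggtct
Trib3, plus strand, chr2:152344028-152344057, core at 15 to 22 inside the transcript: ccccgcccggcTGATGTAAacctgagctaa
All 3 genes lie on the minus strand, so the cores of Fgf21 and Trib3 were read opposite to the gene.

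Among the other known ATF4 targets listed below, 8 of 23 genes with a window held the core (34.8%), as did 5 of 9 aminoacyl-tRNA synthetase genes (55.6%) and 1 of 11 genes of serine and glycine metabolism (9.09%). None of 14 folate genes, 10 genes that control the integrated stress response, 8 mitochondrial proteases and chaperones or 10 endoplasmic reticulum stress genes did. The next 4 sequences are from other ATF4 targets picked because edgeR called them higher in P635L Ctr than in WT Ctr. They are set out to compare their letters with the 3 above. Vldlr, Herpud1, Got1 and Slc7a11 of that list also held the core and are not printed. Vldlr was at 169 to 216 CPM in WT Ctr and at 111.2 to 151.5 CPM in P635L Ctr. Herpud1 was at 115.4 to 154 and at 90.68 to 117.8 CPM, Got1 overlapped, and Slc7a11 did not exceed 0.3618 CPM. Nothing about expression is read from the core.
Chac1, minus strand, chr2:119351038-119351067: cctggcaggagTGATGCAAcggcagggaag
Atf3, plus strand, chr1:191183425-191183454: cgcggacttggTGATGCAAgtgcgagaagg
Nupr1, plus strand, chr7:126625562-126625591: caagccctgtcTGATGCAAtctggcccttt
Pycr1, minus strand, chr11:120643833-120643862: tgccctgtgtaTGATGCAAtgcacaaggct
The 250 bases before the start of Mthfd2 (chr6:83317605-83317854, minus strand, printed along the gene) hold no such core and are shown because Mthfd2 had the largest fitted difference of the called members in P635L Ctr against WT Ctr.
Mthfd2: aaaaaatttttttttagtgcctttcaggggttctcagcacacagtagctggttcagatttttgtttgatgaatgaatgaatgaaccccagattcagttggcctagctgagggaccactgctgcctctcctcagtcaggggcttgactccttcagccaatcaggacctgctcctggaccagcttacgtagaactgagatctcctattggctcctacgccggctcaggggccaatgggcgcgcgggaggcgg
These matches describe letters in a window and do not show that ATF4 was bound there.

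In mutant hearts with the control virus, 5 of the 10 genes were called higher than in WT Ctr and none lower: Mthfd2, Aldh1l2, Atf4, Asns and Trib3. Mthfd2 stood 7.35-fold higher in the fit and Atf4 1.83-fold, while Shmt2, the enzyme just upstream of Mthfd2, was not called. Over all genes tested 14.2% were called in this comparison, 7.07% higher and 7.14% lower. Calls are edgeR quasi-likelihood tests with a Benjamini-Hochberg adjusted p under 0.05 over all genes. The comparison uses the same P635L Ctr libraries in which the later fall of Mthfd2 had been noticed, so its p-values are not independent of that choice. In bulk tissue, more cells of a type and more RNA per cell cannot be told apart. The median log2 fold change was 0.90 over the 10 genes and -0.05 over all genes tested.

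**Figure D1:**
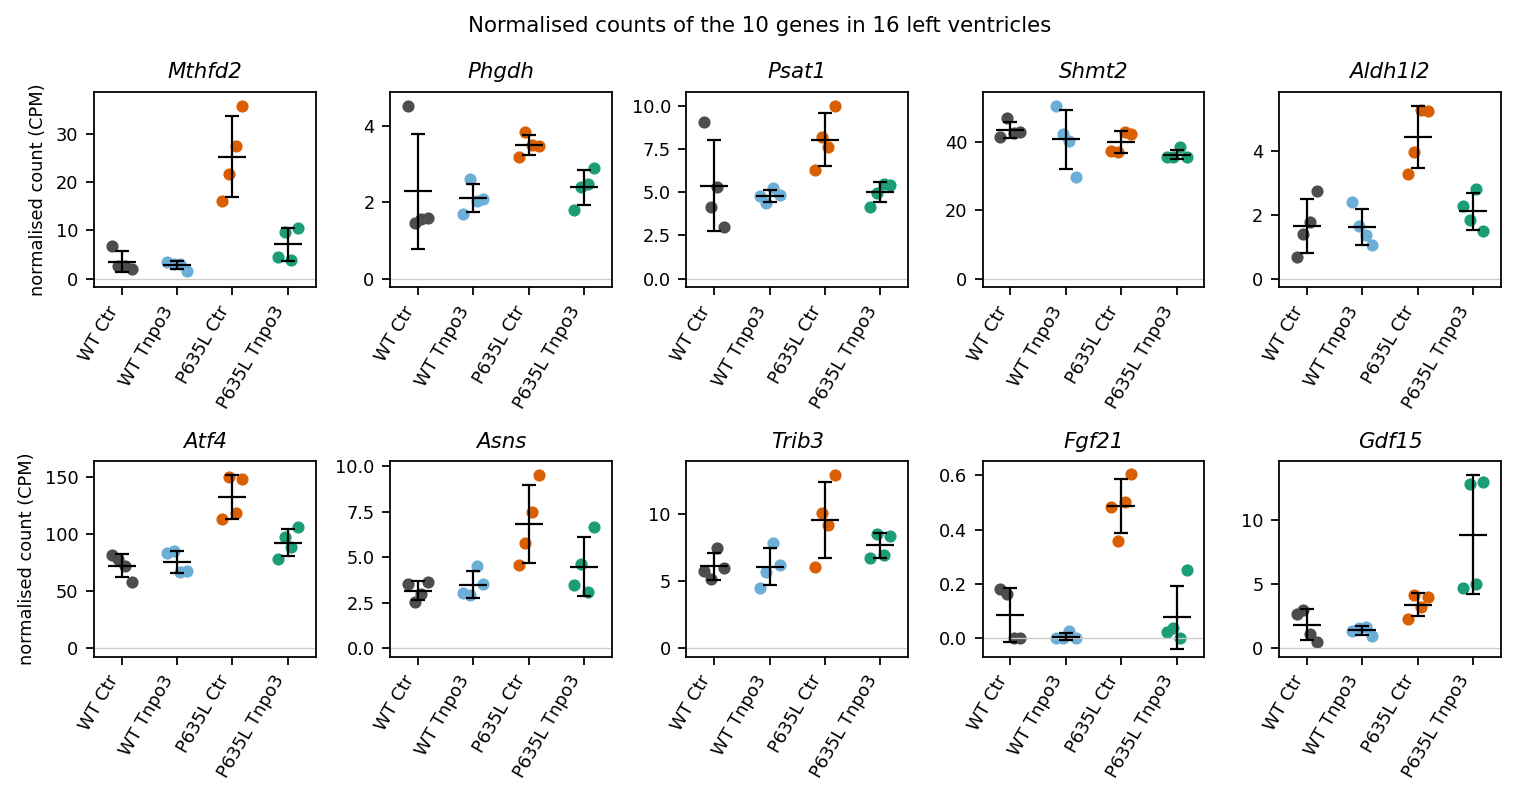
Normalised counts (CPM with TMM factors, vertical axis, a separate linear scale for each gene) of the 10 genes in 4 groups of 4 mice, each point 1 library, with the group mean (long bar) and SD (whiskers). Mthfd2 in the 4 P635L Ctr hearts lies at 16.1 to 36.0 CPM, above all 12 other hearts, while Gdf15 is highest in the 4 P635L Tnpo3 hearts.

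Mthfd2 (ENSMUSG00000005667, chromosome 6, 83282673 to 83302890, minus strand; positions of genes and exons are those of the authors' table, build GRCm39 per the submitters' processing notes) was at 6.69, 2.64, 2.58 and 1.97 CPM in WT Ctr. It was at 16.1, 21.9, 27.5 and 36.0 CPM in P635L Ctr, so the lowest mutant heart was above the highest wild-type heart. The mean of the 4 wild-type hearts was 3.47 ± 2.17 CPM, and that of the 4 mutant hearts was 25.4 ± 8.49 CPM (SD). The log2 fold change was 2.88 (SE 0.43, edgeR adjusted p = 0.00034) and lay between 2.66 and 3.41 when 1 library was left out. It was 2.51 (SE 0.52, edgeR adjusted p = 0.00995) without the 3 libraries rich in ENSMUSG00000119584 and 2.71 (SE 0.47, edgeR adjusted p = 0.00236) without the 3 with high Xist. Over all 16 libraries its highest CPM was 24.2 times its lowest, a range that only Gdf15 exceeded (27.9 times) among the 9 members with counts in every library.

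The enzymes around Mthfd2 did not all move with it. Aldh1l2, which takes the folate-bound carbon to carbon dioxide in mitochondria, was at 0.688, 1.40, 1.78 and 2.75 CPM in WT Ctr and at 3.30, 3.97, 5.29 and 5.26 CPM in P635L Ctr. The groups did not overlap, and the log2 fold change was 1.41 (SE 0.34, edgeR adjusted p = 0.00862). Aldh1l2 shares 1056 bases of exon with D10Wsu102e on the other strand, and whether strand was used in counting is not given in the sources used here. For D10Wsu102e the wild-type mean was 13.3 ± 3.86 CPM and the mutant mean 12.1 ± 1.14 CPM (SD, n = 4). The part of that overlap in the Aldh1l2 difference was not tested.

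Shmt2, which feeds one-carbon units into the same mitochondrial pool, was at 41.6, 47.0, 42.6 and 42.8 CPM in WT Ctr and at 37.4, 37.1, 43.0 and 42.4 CPM in P635L Ctr. These 2 groups overlapped and the gene was not called (edgeR adjusted p = 0.557). Phgdh, the first enzyme of serine synthesis, was at 4.52, 1.44, 1.56 and 1.59 CPM in WT Ctr and at 3.18, 3.84, 3.49 and 3.47 CPM in P635L Ctr (edgeR adjusted p = 0.189). The 4 mutant hearts were above 3 of the 4 wild-type hearts, and WT Ctr replicate 1 was above all of them. Psat1, the transaminase that follows PHGDH, was at 9.05, 4.13, 5.32 and 3.01 CPM in WT Ctr and at 6.29, 8.22, 7.64 and 10.02 CPM in P635L Ctr (edgeR adjusted p = 0.122), again with WT Ctr replicate 1 among the mutant hearts.

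WT Ctr replicate 1 had the highest Mthfd2, Phgdh and Psat1 of its group. That library also held the most macrophage and lymphocyte marker counts of its group, 542 CPM summed over 5 macrophage genes and 44.0 CPM over 5 lymphocyte genes, where the other 3 WT Ctr hearts reached at most 253 CPM and 4.60 CPM. Its sums were also the highest of its group for fibroblast markers, 1170 CPM against 775 to 903 CPM, and for dividing-cell markers, 50.3 CPM against 26.0 to 43.7 CPM. The part of all these markers in those levels was not tested. Without that library 6 of the 10 genes were called, beside 13.1% of all genes tested in that fit.

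Atf4 itself was at 81.3, 77.8, 72.0 and 58.2 CPM in WT Ctr and at 113, 150.0, 119 and 148 CPM in P635L Ctr. The groups did not overlap, and the log2 fold change was 0.87 (SE 0.14, edgeR adjusted p = 0.000309). The transcript level is only 1 part of ATF4 control, since the protein is regulated at translation, which these data do not measure. Asns, which makes asparagine and is a classical ATF4 target, was at 3.55, 2.52, 2.96 and 3.62 CPM in WT Ctr and at 4.56, 5.78, 7.50 and 9.51 CPM in P635L Ctr. Each mutant heart was above each wild-type heart, and the fitted difference was 1.11 on the log2 scale (SE 0.26, edgeR adjusted p = 0.00708). Without the 3 libraries rich in ENSMUSG00000119584 its adjusted p was 0.0457. Trib3, a pseudokinase that restrains ATF4 in feedback, was at 5.75, 5.12, 7.45 and 5.94 CPM in WT Ctr and at 6.01, 10.1, 9.12 and 12.9 CPM in P635L Ctr. Its groups overlapped through P635L Ctr replicate 1, and its log2 difference of 0.65 (SE 0.21, edgeR adjusted p = 0.0435) lost the call under 9 of 17 alternatives, with adjusted p-values from 0.0104 to 0.19. Among these were the fits without WT Ctr replicate 1, 2 or 4 (adjusted p = 0.0819, 0.0976 and 0.0814) and without P635L Ctr replicate 2, 3 or 4 (adjusted p = 0.0972, 0.0676 and 0.168). The call was also lost without the 3 libraries rich in ENSMUSG00000119584 (adjusted p = 0.19) and without the 3 with high Xist (adjusted p = 0.0823).

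The hormones were low. Fgf21 had 5, 4, 0 and 0 counts in the WT Ctr libraries and 21, 34, 22 and 32 counts in P635L Ctr, or 0 to 0.181 CPM against 0.359 to 0.603 CPM. The groups did not overlap and Fgf21 was not called by edgeR (adjusted p = 0.0806), while the authors' deposited table from DESeq2 lists it at an adjusted p of 0.0157. A count of 0 allows up to 3 counts, or 0.0822 and 0.0869 CPM in the 2 WT Ctr libraries without any, a limit that covers counting error only. Gdf15 was at 2.68, 2.97, 1.12 and 0.464 CPM in WT Ctr and at 2.26, 4.13, 3.17 and 4.01 CPM in P635L Ctr, overlapping and not called (edgeR adjusted p = 0.197). Over the 10 genes, 5 had all mutant hearts above all wild-type hearts (Mthfd2, Aldh1l2, Atf4, Asns and Fgf21), where 9.71% of all genes tested did. None had the reverse, which 9.43% of all genes had.

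Per gene length, the mean of Mthfd2 was the third of the 5 enzymes in WT Ctr, where it differed from those of Psat1 and Phgdh by less than their SDs, and the second, after Shmt2, in P635L Ctr. In RPKM, which are CPM divided by the gene's length in kilobases, WT Ctr hearts held 13.99 ± 0.769 of Shmt2, 1.26 ± 0.616 of Psat1, 0.995 ± 0.622 of Mthfd2, 0.917 ± 0.602 of Phgdh and 0.221 ± 0.115 of Aldh1l2 (SD, n = 4). P635L Ctr hearts held 12.9 ± 1.02 RPKM of Shmt2, 7.27 ± 2.44 of Mthfd2, 1.89 ± 0.364 of Psat1, 1.41 ± 0.109 of Phgdh and 0.594 ± 0.132 of Aldh1l2. The paralog Mthfd2l, which can carry out the same mitochondrial steps, had 0.708 ± 0.0605 RPKM in wild-type hearts and 1.02 ± 0.0658 in mutant hearts with the control virus, so its mean lay within the spread of Mthfd2 in wild-type hearts and below Mthfd2 in mutant hearts. Mthfd1l, the mitochondrial synthetase of the same pathway, was at 0.672 ± 0.552 RPKM and 0.422 ± 0.0606 in the same groups.

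The wider pathways were read from 8 lists that exclude the 10 members, with 109 genes tested. Of these 34 were called in this comparison, beside 14.2% of all genes tested. Of 24 tested genes known as other ATF4 targets, 10 were higher and 2 lower in P635L Ctr than in WT Ctr, with a median log2 fold change of 0.38. Among those called higher, the largest changes were in Atf5, a transcription factor of the mitochondrial stress response (1.97, SE 0.20, edgeR adjusted p = 2.8e-06), Atf3, a stress-induced transcription factor (1.61, SE 0.35, adjusted p = 0.00553), and Nupr1, a small stress-induced nuclear protein (1.53, SE 0.30, adjusted p = 0.00259). The call of Atf3 was lost without the 3 libraries rich in ENSMUSG00000119584 (adjusted p = 0.0637). Slc7a1, an importer of arginine and lysine, was lower, at -1.59 (SE 0.18, edgeR adjusted p = 8.8e-06). Chac1, which degrades glutathione, had 1.23 ± 0.382 RPKM in wild-type and 3.03 ± 0.749 RPKM in mutant hearts, and Ddit3, which encodes CHOP, was at 22.5 ± 4.93 and 30.1 ± 6.67 RPKM. Of 13 aminoacyl-tRNA synthetase genes and the exporter of tRNA linked to ATF4, 5 were higher and none lower, with a median of 0.28 and the largest changes in Nars1 (0.52), Sars1 (0.49), Cars1 (0.49) and Xpot (0.45). Cars1 lost its call without P635L Ctr replicate 3 (adjusted p = 0.0538) and without the 3 libraries rich in ENSMUSG00000119584 (adjusted p = 0.0686).

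Among serine and folate genes beyond the members, 7 of 33 were called, in both directions, beside 14.2% of all genes tested. Of 15 genes of serine and glycine metabolism, 2 were higher and 2 lower, with a median log2 fold change of 0.10. Srr, which makes D-serine, was higher at 0.69 and Sds, which breaks serine down, at 0.86, whereas Sfxn2, a relative of the mitochondrial serine carrier, was lower at -0.72 and Cth, of the transsulfuration pathway, at -1.30. Sds lost its call without WT Ctr replicate 1, 3 or 4 (adjusted p = 0.12, 0.0537 and 0.117) or any single P635L Ctr library (adjusted p from 0.0596 to 0.129), and Cth without WT Ctr replicate 1, 3 or 4 (adjusted p = 0.0559, 0.104 and 0.0579) or P635L Ctr replicate 1, 2 or 4 (adjusted p = 0.103, 0.134 and 0.0998). Without the 3 libraries rich in ENSMUSG00000119584 neither was called (adjusted p = 0.0738 for Sds and 0.0514 for Cth), and Sds was not called without the 3 with high Xist (adjusted p = 0.0919). Of 18 genes of the folate cycle, 2 were higher, among them Mthfd2l at 0.52, and 1 was lower, with a median of 0.04. Mthfd2l was at an adjusted p of 0.0507 without the 3 libraries rich in ENSMUSG00000119584. The lower gene was Shmt1, the cytosolic counterpart of Shmt2, which was at 16.7, 12.1, 11.7 and 11.9 CPM in WT Ctr and at 3.87, 5.40, 4.70 and 4.18 CPM in P635L Ctr. Its log2 fold change was -1.52 (SE 0.16, edgeR adjusted p = 3.14e-06), opposite in direction to that of Mthfd2.

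No gene of the lists for integrated stress response control, mitochondrial proteases and chaperones or endoplasmic reticulum stress was called higher. Ppp1r15a, which encodes the subunit that lets eIF2 be dephosphorylated, was listed with the other ATF4 targets instead. Ppp1r15a was at 22.3, 22.2, 26.6 and 18.2 CPM in WT Ctr and at 46.0, 54.1, 48.8 and 59.6 CPM in P635L Ctr. Over all genes tested 7.07% were called higher and 7.14% lower in this comparison. In lists this short, counts of 0 to 2 lie near those shares, and nothing is read from them. None of 13 genes that control the integrated stress response (eIF2 kinases, subunits of the exchange factor eIF2B and related genes) was higher and 2 were lower. These were Eif2b4 at -0.52 and Dele1, which relays mitochondrial stress to the response, at -0.41. None of 11 mitochondrial proteases and chaperones was higher and 1 was lower, Afg3l2 at -0.44. None of 12 endoplasmic reticulum stress genes was higher and 5 were lower, with a median of -0.28. Among these were the chaperones Hspa5 (-0.82, SE 0.13, edgeR adjusted p = 0.000389) and Calr (-0.70), the cofactor Sdf2l1 (-1.25) and the secreted factor Manf (-0.83). Dele1 lost its call without WT Ctr replicate 2, 3 or 4 or any single P635L Ctr library (adjusted p from 0.0529 to 0.134), Eif2b4 without WT Ctr replicate 2 or P635L Ctr replicate 1, 2 or 4 (0.0507 to 0.10), and Afg3l2 without any 1 of the same 4 libraries (0.0553 to 0.115). Dele1 was not called without the 3 libraries rich in ENSMUSG00000119584 (adjusted p = 0.0709).

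**Figure D2:**
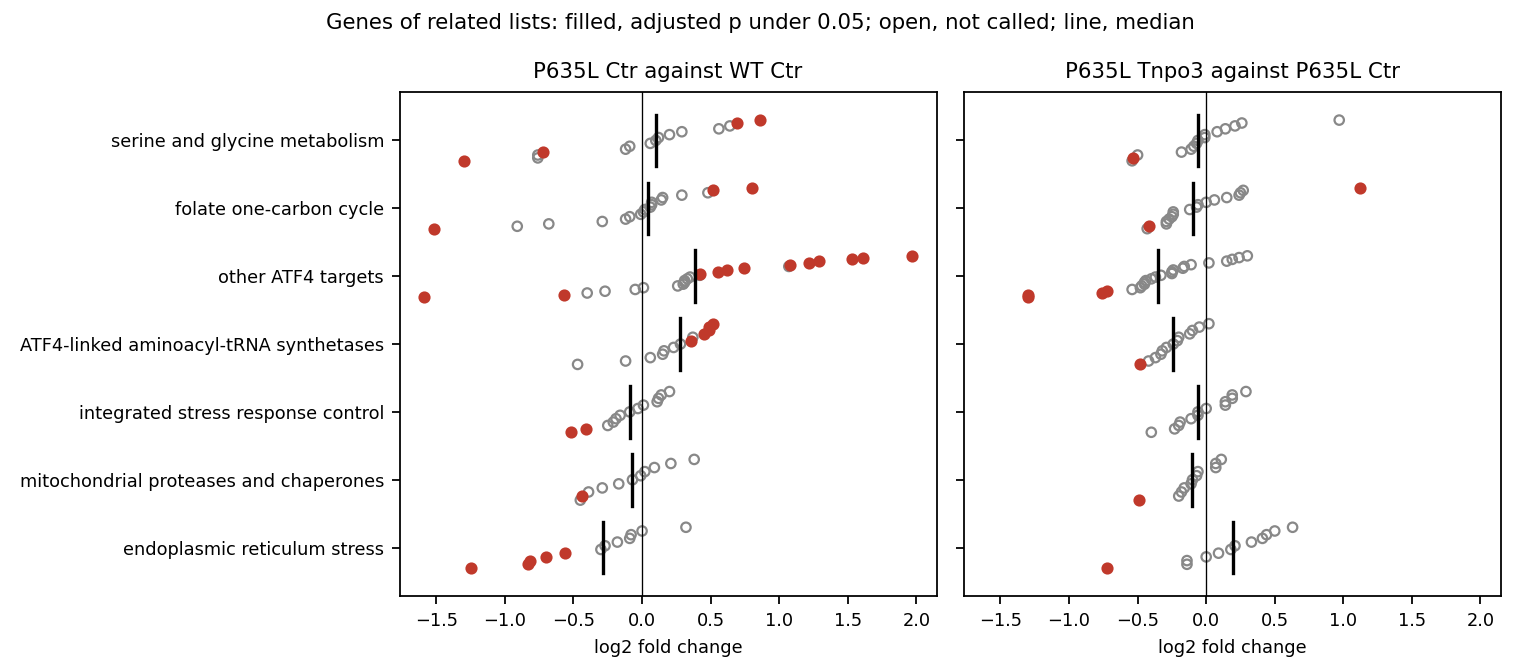
Log2 fold changes (horizontal axis) of the genes of 7 related lists, members excluded, in P635L Ctr against WT Ctr (left) and in P635L Tnpo3 against P635L Ctr (right), each point 1 gene; filled points were called, open points were not, and the line is the list's median. On the left the other ATF4 targets have 10 genes called higher with a median of 0.38, and the endoplasmic reticulum stress genes have 5 called lower with a median of -0.28.

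With the Tnpo3 virus in mutant hearts, 2 of the 10 genes, Mthfd2 and Atf4, passed the threshold as lower than in P635L Ctr, beside 3.88% called over all genes, 2.25% called lower and 1.63% called higher. Because Mthfd2 had been picked from this comparison, nothing is read from that count. Mthfd2 was at 4.49, 9.63, 3.93 and 10.5 CPM in P635L Tnpo3, all below the lowest P635L Ctr heart at 16.1 CPM, and its mean fell from 25.4 to 7.13 ± 3.40 CPM (SD, n = 4). Its fitted log2 fold change was -1.83 (SE 0.41) and stayed between -2.07 and -1.61 with 1 library left out. Atf4 was at 78.0, 97.2, 88.8 and 106 CPM, all below the lowest P635L Ctr heart at 113 CPM, and its fitted difference was -0.52 on the log2 scale (SE 0.14). Without P635L Ctr replicate 4, P635L Tnpo3 replicate 1 or P635L Tnpo3 replicate 3 neither gene passed the threshold. The median over the 10 genes was -0.58 and that over all genes tested 0.01.

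In the same comparison 4 further members were lower with the Tnpo3 virus without overlap. Phgdh was at 1.78, 2.40, 2.47 and 2.89 CPM in P635L Tnpo3, where P635L Ctr began at 3.18 CPM, and Psat1 was at 4.17, 4.97, 5.45 and 5.41 CPM, where P635L Ctr began at 6.29 CPM. Aldh1l2 was at 2.29, 1.85, 2.82 and 1.48 CPM against 3.30 CPM and above. Fgf21 had 1, 2, 0 and 13 counts against 21 counts and above, a total of 16 counts in 4 libraries against 109. With Mthfd2 and Atf4 these make 6 of the 10 genes, while 11.0% of all genes tested had every P635L Tnpo3 heart below every P635L Ctr heart. Nothing is read from this count, since Mthfd2 was picked for its fall here. The other 3 with lower means overlapped: Asns at 3.47, 4.64, 3.08 and 6.68 CPM, Trib3 at 6.71, 8.49, 6.95 and 8.36 CPM, and Shmt2 at 35.6, 35.6, 38.5 and 35.7 CPM.

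Gdf15 went the other way, and its values are described because they were seen to do so. It was at 4.69, 12.8, 5.001 and 12.9 CPM in P635L Tnpo3, all above the highest P635L Ctr heart at 4.13 CPM, and its mean was 8.85 ± 4.63 CPM against 3.39 ± 0.868 CPM (SD, n = 4). It was the 1 member with non-overlapping higher values, where 9.36% of all genes tested had them. The 4 hearts fell into a pair near 5 CPM (replicates 1 and 3) and a pair near 13 CPM (replicates 2 and 4), and the same replicates 2 and 4 had the higher Mthfd2 and Atf4 of their group. Tnpo3 itself was at 359, 723, 543 and 234 CPM in replicates 1 to 4, with its highest and its lowest value both in the pair near 13 CPM. The part of the virus's transcript in the split was not tested. The summed fibroblast markers did part the pairs, at 888.1, 1191, 881.7 and 1418 CPM in replicates 1 to 4. So did atrial markers, at 8.493, 12.34, 6.519 and 17.55 CPM, and dividing-cell markers, at 14.91, 23.17, 13.02 and 15.27 CPM. Cardiomyocyte markers parted them in reverse, at 50440, 40720, 42980 and 42000 CPM. Summed macrophage markers, at 213.3, 289.7, 356.9 and 235.9 CPM, did not. All these sums were looked up after the split was seen, and their part in it was not tested.

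**Figure D3:**
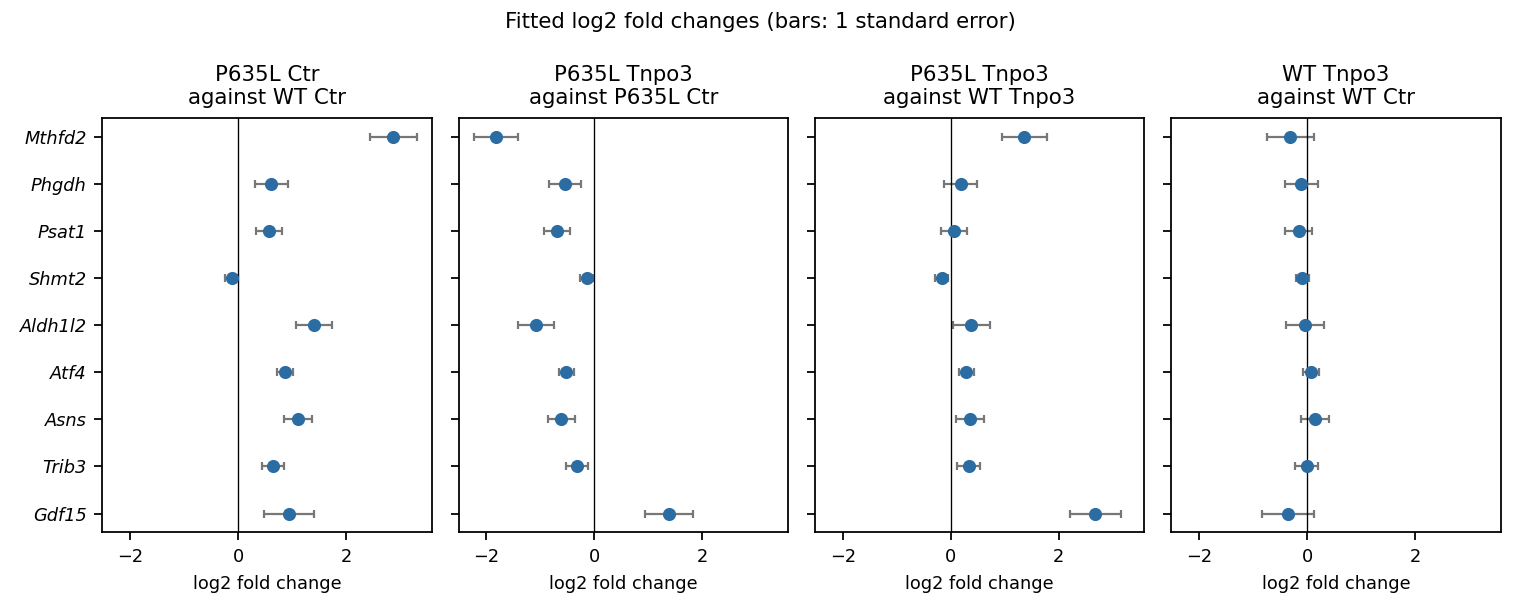
Fitted log2 fold changes (horizontal axis, points) with 1 standard error (bars) of 9 of the 10 genes in 4 comparisons, Fgf21 left out because several of its groups hold few counts. In the second panel Mthfd2 lies at -1.83 and Gdf15 at 1.38, and in the fourth panel, wild-type hearts, none of the 9 was called.

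Among the listed genes outside the members, 11 of 109 tested were called between P635L Tnpo3 and P635L Ctr, beside 3.88% of all genes tested. Mthfd2 had been picked from this comparison, and the lists were chosen with earlier results known. The calls and p-values here are therefore not independent of that choice, and nothing is read from the count. The count was 4 without P635L Ctr replicate 4 and 5 without P635L Tnpo3 replicate 1 or 3. It was 6 without P635L Ctr replicate 1 or 2 or P635L Tnpo3 replicate 2, 7 without P635L Ctr replicate 3 and 10 without P635L Tnpo3 replicate 4. The other ATF4 targets had 4 lower and none higher, with a median log2 fold change of -0.35. Atf5 was at 119, 141, 94.5 and 200.1 CPM in P635L Tnpo3 and at 309, 383, 294 and 375 CPM in P635L Ctr, and it fell by 1.30 on the log2 scale (SE 0.20, edgeR adjusted p = 0.001). Ppp1r15a, which encodes the subunit that lets eIF2 be dephosphorylated, fell by 0.72 (SE 0.14, edgeR adjusted p = 0.00634), and both calls held under all 17 alternatives. Atf3 at -1.30 and Slc7a5, a transporter of large neutral amino acids, at -0.76 were called as well, but the calls were lost under 10 and 11 of 17 alternatives, with the highest adjusted p (0.159 and 0.167) without P635L Ctr replicate 4. Shmt1 was higher at 1.12 (SE 0.16, edgeR adjusted p = 0.000505), with 9.37, 8.37, 10.7 and 11.1 CPM in P635L Tnpo3, above every P635L Ctr heart and below every WT Ctr heart. Single calls were made for Srr (-0.53), Atic of purine synthesis (-0.42), Nars1 (-0.48), the protease Lonp1 (-0.49) and the endoplasmic reticulum stress sensor Atf6 (-0.72). Each of these 5 calls was lost without P635L Ctr replicate 4 (adjusted p = 0.18, 0.146, 0.057, 0.116 and 0.0532), and those of Srr, Atic, Nars1 and Lonp1 without P635L Tnpo3 replicate 1 or 3 as well.

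In wild-type hearts the Tnpo3 virus came with no called change of the 10 genes. None was called by edgeR, none had an unadjusted p under 0.05, and DESeq2 called none, while 0.00536% of all genes tested were called. None of the 10 had groups that did not overlap, where 0.568% of all genes tested lay higher and 0.52% lower without overlap. Mthfd2 was at 3.46, 3.13, 3.05 and 1.49 CPM in WT Tnpo3, overlapping WT Ctr with 1 heart below its lowest, and the fitted difference was -0.31 on the log2 scale (SE 0.43, edgeR adjusted p = 1). Without WT Ctr replicate 1 that value was 0.23. Atf4 was at 83.0, 85.2, 67.1 and 67.6 CPM, with a fitted difference of 0.07 (SE 0.14, edgeR adjusted p = 1) that was -0.02 without WT Ctr replicate 4. Gdf15 was at 1.37, 1.54, 1.68 and 0.925 CPM and Fgf21 had 1 count in the 4 libraries together. None of the 109 listed genes was called, by edgeR, 4 of them at an unadjusted p under 0.05.

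The difference between the virus effects in mutant and wild-type hearts was tested as an interaction, which contains the comparison from which Mthfd2 had been picked. None of the 10 genes was called by edgeR, 4 had an unadjusted p under 0.05, and DESeq2 called none, while 0.504% of all genes tested were called. The interaction was -1.52 for Mthfd2 (SE 0.59, edgeR adjusted p = 0.307), -0.58 for Atf4 (SE 0.20, adjusted p = 0.222) and 1.74 for Gdf15 (SE 0.65, adjusted p = 0.289).

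Against the wild-type groups, mutant hearts with the Tnpo3 virus had 1 called member, Gdf15, called higher. Its log2 fold change in P635L Tnpo3 was 2.32 against WT Ctr (SE 0.47, edgeR adjusted p = 0.0117, 3.07% of all genes called and 1.49% higher) and 2.68 against WT Tnpo3 (SE 0.48, edgeR adjusted p = 0.00472, 3.72% of all genes called and 1.72% higher). No P635L Tnpo3 heart overlapped either wild-type group, whose highest hearts were at 2.97 and 1.68 CPM. The other member without overlap against WT Ctr was Shmt2, lower at 38.5 CPM and below against 41.6 CPM and above, where 6.92% of all genes tested lay lower and 4.75% higher without overlap. The call against WT Ctr was lost when only those 2 groups were fitted (adjusted p = 0.0891). The authors' deposited table from DESeq2 lists Gdf15 as the 1 member past an adjusted p of 0.05 in P635L Tnpo3 against WT Ctr, at 0.0127.

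Mthfd2 in P635L Tnpo3 lay between the wild-type and the P635L Ctr levels. Its log2 fold change was 1.05 against WT Ctr (SE 0.42, edgeR adjusted p = 0.195) and 1.36 against WT Tnpo3 (SE 0.42, edgeR adjusted p = 0.0862). The first value was 1.58 with an adjusted p of 0.0331 without WT Ctr replicate 1, and DESeq2 called the second at 0.0365. The first was 0.68 (adjusted p = 0.57) without the 3 libraries rich in ENSMUSG00000119584 and the second 1.14 (adjusted p = 0.269) without the 3 with high Xist. Every P635L Tnpo3 heart was above every WT Tnpo3 heart for Mthfd2, 3.93 CPM and above against 3.46 CPM and below, and 5.79% of all genes tested had such higher values. No member was lower without overlap in that comparison, where 5.7% of all genes were. For Atf4 the corresponding log2 fold changes were 0.36 (SE 0.14, edgeR adjusted p = 0.177) and 0.29 (SE 0.14, edgeR adjusted p = 0.249). In order of mean level Mthfd2 ran P635L Ctr, P635L Tnpo3, WT Ctr, WT Tnpo3, and WT Ctr overlapped both of its neighbours in that order.

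The comparison of P635L Tnpo3 with WT Tnpo3 shares no library with that of P635L Ctr with WT Ctr. It is not independent, because both came from 1 fit and the lists were chosen with earlier results known. Its P635L Tnpo3 libraries were also part of the comparison from which Mthfd2 had been picked. In it 7 of the 109 listed genes were called, beside 3.72% of all genes tested. Atf5 (0.77, SE 0.19, edgeR adjusted p = 0.0345), Nupr1 (1.27, SE 0.30, adjusted p = 0.0293) and Cars1 (0.58, SE 0.13, adjusted p = 0.0183) were higher. Slc7a1 (-1.46), Hspa5 (-0.61), Pdia4, a disulfide isomerase of the endoplasmic reticulum (-0.47), and Ret (-0.85) were lower. The count was 1 when WT Tnpo3 replicate 1 or P635L Tnpo3 replicate 4 was left out, 2 when WT Tnpo3 replicate 2 was, 4 when P635L Tnpo3 replicate 2 or 3 was and 15 when WT Tnpo3 replicate 4 was. Slc7a1 kept its call under all 17 alternatives, and the other 6 genes each lost theirs without P635L Tnpo3 replicate 4 (adjusted p from 0.071 to 0.149) and without WT Tnpo3 replicate 1 (adjusted p from 0.0502 to 0.126). All 6 were also lost without the 3 libraries with high Xist, 2 of which are WT Tnpo3 hearts (adjusted p from 0.0677 to 0.21). Against WT Ctr, Sfxn2 (-0.64), Slc7a1 (-1.35) and Ret (-0.82) were lower and Fgfr1 (0.52) was higher. These are 4 of the 109 genes, beside 3.07% of all genes tested, and nothing is read from that count. It dropped to 1 when P635L Tnpo3 replicate 4 was left out and to 2 when replicate 2 of that group was. Sfxn2 lost its call under 14 of 17 alternatives, Ret under 11 and Fgfr1 under 2. Slc7a1 was again called under all 17 alternatives, and Sfxn2, Ret and Fgfr1 were not called without P635L Tnpo3 replicate 4 (adjusted p = 0.163, 0.157 and 0.0639). Without the 3 libraries rich in ENSMUSG00000119584 Ret was at -0.47 (adjusted p = 0.337) and Fgfr1 was not called (adjusted p = 0.0643), and without the 3 with high Xist neither Ret nor Sfxn2 was (adjusted p = 0.0728 and 0.0712).

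The receptors for both hormones were present only in part. FGF21 signals through FGFR1 with the co-receptor beta-Klotho (Klb), and GDF15 through GFRAL with RET. Gfral had 0 counts in all 16 libraries, and Klb did not exceed 0.435 CPM. Fgfr1 was higher in P635L Ctr than in WT Ctr (0.79, SE 0.11, edgeR adjusted p = 0.00011). Ret was at 9.84, 15.8, 7.87 and 10.4 CPM in WT Ctr and at 2.79, 2.25, 3.17 and 3.66 CPM in P635L Ctr (-1.89, SE 0.22, edgeR adjusted p = 1.03e-05), and it was at 7.01, 6.27, 6.68 and 4.85 CPM in P635L Tnpo3 (1.07 against P635L Ctr, SE 0.21, edgeR adjusted p = 0.0093).

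Fibroblast markers followed the group order of Mthfd2 in the mutant hearts. All 6 (Col1a1, Col1a2, Pdgfra, Dcn, Lum and Postn) were called higher in P635L Ctr than in WT Ctr and 5 of 6, all but Postn, lower in P635L Tnpo3 than in P635L Ctr. Their summed level ran from 775 to 1170 CPM in WT Ctr, 876 to 1000 CPM in WT Tnpo3, 1350 to 2020 CPM in P635L Ctr and 882 to 1420 CPM in P635L Tnpo3. Their part in the Mthfd2 result was not tested. Cardiomyocyte markers summed to 57100 to 67300 CPM in WT Ctr and 41200 to 44900 CPM in P635L Ctr, with Myh6 and Tnni3 called lower among 6. Markers of dividing cells, in which MTHFD2 is known to be abundant, summed to 26.0 to 50.3 CPM in WT Ctr and 9.21 to 17.9 CPM in P635L Ctr. Of the 6 genes 1 was called, Cenpf, whose mean was 21.8 CPM in the first group and 2.24 CPM in the second. In each of the other genes the groups overlapped. The part of these markers in the Mthfd2 difference was not tested.

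The 10 genes most like Mthfd2 were found by the Pearson correlation of log2 CPM over the 16 libraries, among 12489 genes whose mean log2 CPM reached 1. Among them were Thbs4 (0.962), Cilp (0.956), Iah1 (0.950), Olfml3 (0.948), Dcn (0.943), Myl1 (0.942), Cx3cl1 (0.942), Jpt1 (0.942) and Tspo (0.938). Thbs4, Cilp, Olfml3 and Dcn encode matrix proteins. These libraries share their groups, and every correlation here is a description. Atf4 ranked 13 with 0.94, and the other members followed at 0.85 for Asns, 0.78 for Psat1, 0.77 for Phgdh, 0.71 for Trib3, 0.64 for Aldh1l2 and 0.58 for Gdf15, with Shmt2 at -0.02. Fgf21, below the mean level for ranking, had 0.87.

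Once the group means were taken out, the order among the members changed. The correlation with Mthfd2 within groups was 0.76 for Gdf15, 0.70 for Atf4, 0.66 for Psat1, 0.64 for Fgf21, 0.62 for Phgdh and 0.59 for Asns, but 0.36 for Shmt2, 0.31 for Trib3 and -0.35 for Aldh1l2. So Gdf15, which differed from Mthfd2 in its group order, had the highest value within groups, and Aldh1l2, which had the same direction as Mthfd2 between groups, was the 1 member with a negative value. The value of Aldh1l2 pools unlike groups. Its hearts ran in the opposite order to Mthfd2 in WT Ctr and P635L Tnpo3 and in the same order in WT Tnpo3. In P635L Ctr replicates 1 and 2 were lowest for both genes. WT Ctr replicate 1 had the highest Mthfd2 (6.69 CPM) and the lowest Aldh1l2 (0.688 CPM) of its group. Among the other pairs Phgdh and Psat1 had 0.75 within groups, Asns and Trib3 0.72, and Atf4 and Gdf15 0.78.

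**Figure D4:**
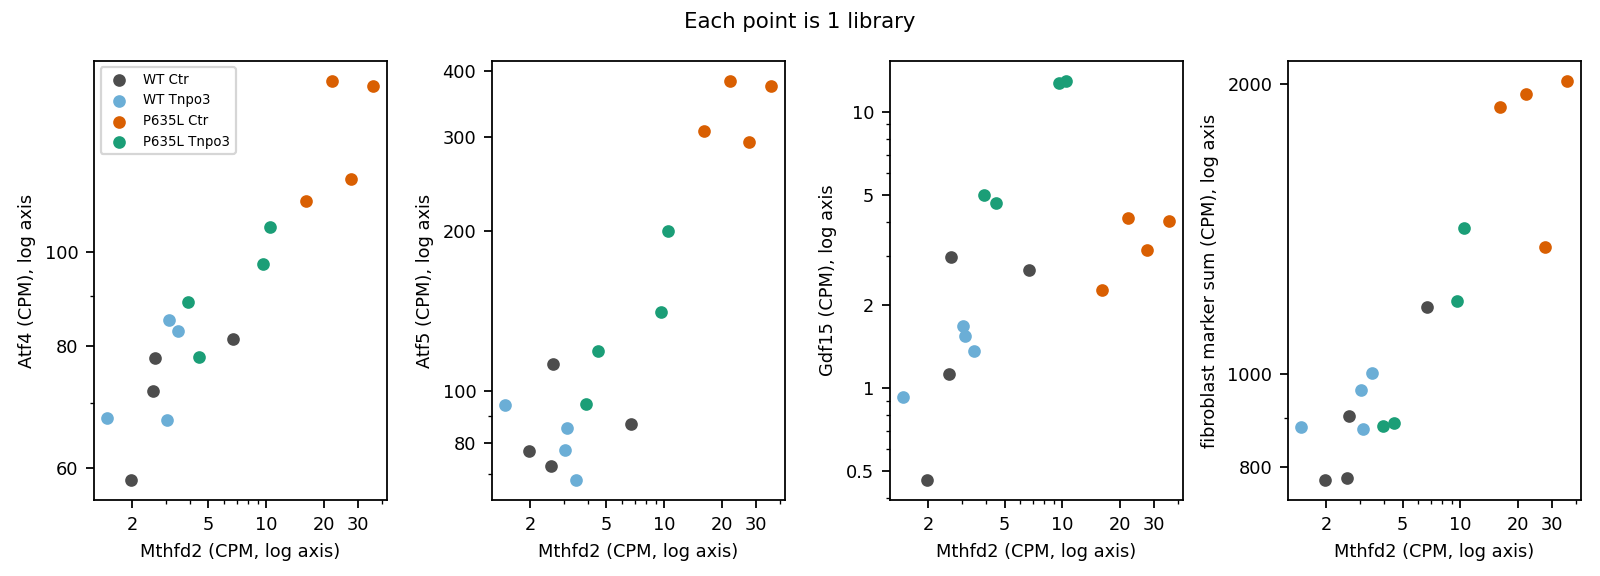
Mthfd2 (horizontal axis, CPM, log scale) against Atf4, Atf5, Gdf15 and the summed level of 6 fibroblast markers (vertical axes, CPM, log scale), each point 1 library coloured by group. Atf4 and Atf5 are highest where Mthfd2 is highest, in P635L Ctr, while Gdf15 is highest in P635L Tnpo3, where Mthfd2 lies at 3.93 to 10.5 CPM; the lowest P635L Ctr heart for the fibroblast sum, at 1350 CPM, lies below the highest P635L Tnpo3 heart, at 1420 CPM.

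RBM20 acts on splicing, so the authors' deposited rMATS tables were searched for the members. They list 4 events in 4 members for P635L Ctr against WT Ctr, 3 events for P635L Tnpo3 and 2 for WT Tnpo3, and none met a false discovery rate under 0.05 with an inclusion difference of at least 0.1 and at least 10 junction reads. Only 2, 2 and 1 of these events had enough reads to be judged by that rule. Over all events with enough reads 2.52%, 2.12% and 0.941% met that rule in the 3 tables. The skippable exon of Mthfd2 (83288192 to 83288344) was included at a mean of 1.0 in WT Ctr and 0.997 in P635L Ctr. The lowest false discovery rate of any member, 0.0928, was for an exon of Asns (7689252 to 7689523), included at 1.0 in each WT Ctr library and at 1.0, 0.949, 1.0 and 0.785 in P635L Ctr, with a mean of 4.75 junction reads in WT Ctr.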

How the data were processed

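Counts per gene were made by the authors with featureCounts 2.0.6 after alignment with STAR 2.7.9a to GRCm39, per the submitters' processing notes. The authors' deposited tables of log2 fold changes, p-values and adjusted p-values come from DESeq2 and are signed WT Ctr over the other group per the file headers, and the sign was turned here. The authors' deposited rMATS tables give junction read counts, inclusion as a fraction from 0 to 1, p-values and false discovery rates. The inclusion difference, from -1 to 1, is a score the authors deposited, per the file headers. Counts of 56953 genes entered edgeR 4.0.16 under R 4.3.3 (quasi-likelihood, robust, TMM, filterByExpr): 1 mean per group over 16 libraries, 12 residual degrees of freedom, 5 contrasts and the interaction, adjusted over 18662 genes, two-sided. The test was checked on simulated counts. CPM use TMM factors; log2 CPM a prior count of 2. Alternatives were DESeq2 1.42.0, other scalings and filters, a replicate block and left-out libraries. The members and lists were chosen with earlier results of these data known. Named were all members, with fold changes for Mthfd2 and Atf4 in every comparison and for others where called, up to 4 called genes per list and comparison, Mthfd2l, Mthfd1l, Ddit3 and Chac1 by level, and the 10 genes most like Mthfd2. The Gdf15 values in mutant hearts and in the interaction, Shmt1, Ret and Ppp1r15a per library, and the pathway genes beside the promoter sequences were added after their values were seen. A result for 1 gene among those most like Mthfd2 and for 1 folate gene is not reported here.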

Additional observations from a re-analysis of the deposited data

Results flagged for a closer look

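In 5 of the 40 combinations of a member and a group, 1 heart lay far from the other 3. The nominal chance rate of about 1 in 20 cannot be set against that count. A single Fgf21 count forces the flag in WT Tnpo3, and the flags of Mthfd2 and Phgdh come from the same heart. Mthfd2 was at 6.69 CPM in WT Ctr replicate 1 and at 1.97 to 2.64 CPM in the other 3, and Phgdh was at 4.52 CPM in the same heart and at 1.44 to 1.59 CPM in the others. Shmt2 was at 38.5 CPM in P635L Tnpo3 replicate 3 and at 35.6 to 35.7 CPM in the others. Fgf21 was at 0.0279 CPM in WT Tnpo3 replicate 3, which is 1 count, and had none in the other 3. Fgf21 was at 0.25 CPM in P635L Tnpo3 replicate 4, 13 counts, and at 0 to 0.0393 CPM in the others; Mthfd2 and Gdf15 were also highest of their group in that heart.

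Every P635L Tnpo3 heart was above every P635L Ctr heart for Gdf15, while the wild-type mean was lower with the virus (1.38 against 1.81 CPM, with overlap), and the 2 virus effects differed by 1.74 on the log2 scale. The interaction test did not call it (edgeR adjusted p = 0.289, between 0.104 and 0.526 over 24 alternatives).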

How the results depend on the processing

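Of 65 named fold changes, 32 kept their direction and their side of the threshold under every alternative; of 1126 values under alternatives, 184 lost the call, 6 gained it and 3 changed sign. The sign changes were in wild-type hearts: Mthfd2 with the Tnpo3 virus was 0.23 without WT Ctr replicate 1 (range -0.50 to 0.23 over left-out libraries), and Atf4 was -0.01 without the 3 libraries with high Xist and -0.02 without WT Ctr replicate 4 (range -0.02 to 0.13). Members called in P635L Ctr against WT Ctr numbered 4 to 6, and listed genes 24 to 40.

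In P635L Tnpo3 against P635L Ctr, 2 members were called. The count was 1 without the filter on low counts, 4 with DESeq2, 5 without the 3 libraries rich in ENSMUSG00000119584 (WT Ctr 2, WT Ctr 4 and WT Tnpo3 4), 4 without the 3 with high Xist and 7 when only those groups were fitted, while the share of all genes called went from 3.88% to 1.7%, 7.5%, 7.59%, 6.6% and 15.9%. With 1 library left out it ran from 0 to 3, and was 0 without P635L Ctr replicate 4, P635L Tnpo3 replicate 1 or P635L Tnpo3 replicate 3, where 1.51%, 2% and 1.48% of all genes were called. Listed genes there numbered 11, and 17, 19, 18 and 30 with DESeq2, without the rich, without the high-Xist and with only those groups, and 4 to 10 with 1 library left out.

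In P635L Tnpo3 against WT Ctr, 1 member was called, 0 when only those groups were fitted and 1 to 2 with 1 library left out, while 4 listed genes became 9 with DESeq2, 2 with only those groups and 1 to 5. Against WT Tnpo3, 1 member became 2 with DESeq2, and 7 listed genes became 17 with DESeq2, 23 without the rich libraries, 1 without the high-Xist libraries and 1 to 15 with 1 left out. In the interaction, 0 listed genes were called by edgeR (20 at an unadjusted p under 0.05), 1 with upper-quartile scaling, 3 without the filter, 6 with DESeq2, 3 without the rich libraries, 2 without the counts of ENSMUSG00000119584 and 0 to 2 with 1 library left out. The cause of these shifts was not tested.

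The labels do not say whether the replicate numbers pair the mice. Of 24 pairs with the same number, 6 had deviations correlated over 0.1 (range -0.26 to 0.55), a count that cannot settle it. With the replicate block, 1 member was called in P635L Tnpo3 against P635L Ctr and 1 listed gene in the interaction. The splicing counts stayed at 0 under the 3 alternatives run in each table. Fgf21, with 135 counts in 16 libraries, is limited by depth.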
